A study of Mus musculus with 6 samples.

Results

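Glycolysis breaks glucose down to pyruvate, and fast skeletal muscle fibres depend on it for the ATP of short, intense work. Once glucose or glycogen has been turned into glucose 6-phosphate, a chain of abundant enzymes carries the carbon to pyruvate: phosphoglucose isomerase (Gpi1), aldolase A (Aldoa), triosephosphate isomerase (Tpi1), glyceraldehyde-3-phosphate dehydrogenase (Gapdh), phosphoglycerate kinase (Pgk1), phosphoglycerate mutase (Pgam1 and Pgam2), enolase (Eno1 and Eno3) and pyruvate kinase (Pkm). Pgam2 and Eno3 encode the muscle forms of their enzymes, and Pgam1 and Eno1 the forms of most other tissues. Phosphofructokinase, the main control point between Gpi1 and Aldoa, was kept in a separate list of other glycolysis genes. The 10 genes named were chosen by symbol, for the steps they catalyse, from a table of 34714 gene symbols, and each symbol was found once.

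RNA was sequenced from gastrocnemius (Gas) muscle of 3 wild-type (WT) and 3 M92KO mice, with 1 library for each mouse. M92KO mice carried a global deletion of the microRNA gene miR-92b in every tissue, on the C57BL/6JGpt background, and WT mice were C57BL/6 animals of the same age. All 6 mice were untreated males of 8 weeks. The comparison asked whether the mRNAs of these enzymes differ in muscle that lacks miR-92b. The methods of the study describe treadmill tests and an overnight fast before muscle was taken. Whether these applied to the 6 mice sequenced is not given in the sources used here. Mir92b itself was not analysed here, so the deletion was not checked in these libraries. Deletion in all tissues from the germline means that an effect inside the muscle fibre and one that comes from another organ cannot be told apart. The methods of the study describe purchased M92KO mice and age-matched controls and do not mention littermates. A difference of substrain or colony therefore cannot be told apart from the deletion. In whole muscle, fewer cells of a type and less RNA per cell cannot be told apart either.

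The WT libraries held 38246649 to 48209846 counts. The M92KO libraries held 33160508 to 37019640 counts, which is fewer than any WT library. Over all genes M92KO replicate 1 stood apart from the other M92KO libraries, with a chi-square per degree of freedom of 57.4 against either, where those 2 gave 10.9 against each other and WT pairs gave 12.8 to 29.6. Against the WT libraries M92KO replicate 1 gave 39.2 to 39.9, which is lower than against either of the other M92KO libraries. The reason was not tested. Values without M92KO replicate 1 are given where they change a call. The muscle markers Acta1, Ckm, Myh4, Mylpf and Tnnt3 were high in all 6 libraries, from 7392 CPM for Mylpf upwards. CPM stands for counts relative to 1000000 counts of the library, scaled with edgeR's TMM factors. Of 15788 genes with enough counts to test, 12.4% had an unadjusted p-value under 0.05 in edgeR's quasi-likelihood test, the threshold used for a call here because the study used it. None passed an adjusted p-value of 0.05 in that test, whereas DESeq2 called 322.

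A microRNA lowers the amount or translation of mRNAs that pair with its seed, bases 2 to 8 from its 5′ end, mostly within the 3′-UTR. The gene of miR-92b lies on the minus strand of chromosome 3 in GRCm38.p6, with the 3p arm at chr3:89227126-89227147 and the 5p arm at chr3:89227165-89227188. Both arms are printed from RefSeq, 5′ to 3′, because both come from the deleted gene, with the seed in capitals.
miR-92b-3p: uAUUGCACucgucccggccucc
miR-92b-5p: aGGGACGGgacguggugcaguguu
The annotated 3′-UTRs of the 10 enzymes (GENCODE M21) were searched for the reverse complement of the seed. For miR-92b-3p, 3 of the 10 held a match to bases 2 to 7, and the matches are printed in the sense of the mRNA with these 6 matched bases in capitals.
Pgam1 (an 8mer, at base 879 of 885): aaaggagtgatgTGCAATa
Pkm (a 7mer-A1, at base 148 of 541): gcctctaaaacaTGCAATagagacca
Eno1 (a 6mer, at base 160 of 324): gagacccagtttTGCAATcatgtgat
An 8mer adds a match to base 8 and an A opposite base 1, a 7mer-A1 adds only the A, and a 6mer adds neither. Among 20111 genes with a 3′-UTR of at least 20 bases, 26.0% held at least a 6mer and 13.6% a 7mer or 8mer for this arm. The 3′-UTRs of the other 7 enzymes held no match to miR-92b-3p. No match to miR-92b-5p was present in any of the 10, against 8.00% of all genes with at least a 6mer. The longest annotated 3′-UTR had 33 bases for Pgam2, 81 for Eno3, 179 for Gapdh and 185 for Aldoa, and up to 1084 for Gpi1. Short 3′-UTRs leave little room for a match, and the shares of all genes were not matched for length. A match is a description of the letters and does not show binding. The 3 enzymes with a match had log2 fold changes (M92KO minus WT) of -0.04 for Pgam1, 0.06 for Pkm and -0.18 for Eno1, and none of these passed the test.

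All 10 enzymes passed the filter on low counts, and 0 of 10 were called higher or lower in M92KO muscle. The background for these counts was 5.47% of all genes called higher and 6.92% called lower. For 0 of 10 enzymes did the 3 M92KO values lie entirely outside the 3 WT values, while 18.4% of all genes tested had groups that did not overlap. The median log2 fold change of the 10 was 0.05, with 6 of 10 above 0. Across all genes tested it was -0.000081. The median size of the difference, without its sign, was 0.06 for the enzymes, 0.12 for all genes tested, and 0.09 for the 91 genes of at least 1000 CPM, of which 12 were called. Adjusted p-values of the 10 enzymes ran from 0.509 to 0.948 with edgeR's quasi-likelihood test and Benjamini-Hochberg adjustment.

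**Figure D1:**
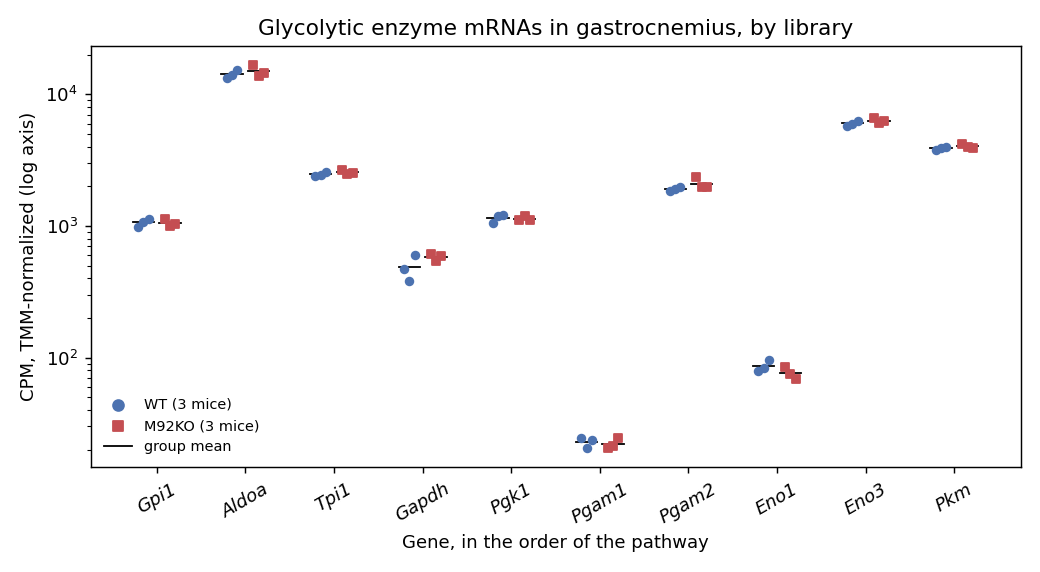
CPM of each enzyme mRNA on a log axis, in the order of the pathway, with 1 point for each of 3 WT (circles) and 3 M92KO (squares) libraries and a line at each group mean. The groups overlap for all 10 genes, and the levels span from 20.5 CPM (Pgam1) to 16669 CPM (Aldoa).

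The first steps split the hexose into a pair of triose phosphates. Gpi1, which converts glucose 6-phosphate to fructose 6-phosphate (chr7:34201330-34230336, minus strand, 18 exons), had 980.0, 1078 and 1137 CPM in WT and 1123, 992.6 and 1030 CPM in M92KO muscle. The M92KO values all lay within the WT range. The log2 fold change was -0.02 (95% interval -0.22 to 0.18). Aldoa, which cleaves fructose 1,6-bisphosphate (chr7:126795234-126800751, minus strand, 10 exons), had 13395, 14025 and 15253 CPM in WT and 16669, 13782 and 14572 CPM in M92KO muscle. M92KO replicate 1 was above every WT library and the other M92KO libraries lay among them. Aldoa had a log2 fold change of 0.08 (95% interval -0.18 to 0.34), which was -0.005 without M92KO replicate 1. Tpi1, which interconverts the triose phosphates (chr6:124810586-124814296, minus strand, 7 exons), had 2391, 2449 and 2566 CPM in WT and 2652, 2475 and 2521 CPM in M92KO muscle. M92KO replicate 1 lay above the WT range and the other M92KO libraries lay within it. The values of Tpi1 varied least of the 10 over the 6 libraries, with a coefficient of variation of 3.68%, and the log2 fold change was 0.05 (95% interval -0.13 to 0.23).

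Gapdh and Pgk1 form the steps that reduce NAD and make the first ATP. Gapdh (chr6:125161715-125166467, minus strand, 7 exons) had 468.4, 384.9 and 597.4 CPM in WT and 610.8, 543.2 and 594.4 CPM in M92KO muscle. Of the WT libraries, 2 lay below all M92KO libraries and WT replicate 3 lay among them. Gapdh had the largest difference and the widest interval of the 10 enzymes, with a log2 fold change of 0.27 (95% interval -0.06 to 0.60, adjusted p = 0.509 with edgeR's quasi-likelihood test). Without WT replicate 3 the log2 fold change was 0.45 and Gapdh was called, with an adjusted p-value of 0.484 from edgeR, and without WT replicate 2 it was 0.13. Gapdh also varied most over the 6 libraries, with a coefficient of variation of 16.8%. Relative to Tpi1 in the same library, Gapdh stood at 19.6%, 15.7% and 23.3% of the Tpi1 counts in WT and 23.0%, 21.9% and 23.6% in M92KO muscle. The WT libraries thus spread over a wider range of this ratio than the M92KO libraries, and the groups overlapped. Pgk1 (chrX:106187100-106203699, plus strand, 11 exons) had 1056, 1196 and 1201 CPM in WT and 1102, 1199 and 1103 CPM in M92KO muscle. All M92KO values of Pgk1 lay within the WT range, and the log2 fold change was -0.02 (95% interval -0.21 to 0.17).

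Phosphoglycerate mutase and enolase are each made by a muscle gene and a gene of wide expression. Pgam2 (chr11:5801640-5803733, minus strand, 3 exons) had 1843, 1919 and 1974 CPM in WT and 2343, 1965 and 1965 CPM in M92KO muscle. M92KO replicate 1 stood above the other 5 libraries, which lay close together. The log2 fold change was 0.13 (95% interval -0.09 to 0.34), and 0.04 without M92KO replicate 1. Pgam1 (chr19:41911923-41918660, plus strand, 4 exons) was the lowest of the 10, with 24.3, 20.5 and 23.6 CPM in WT and 20.6, 21.3 and 24.7 CPM in M92KO muscle. The groups covered nearly the same range, and the log2 fold change was -0.04 (95% interval -0.27 to 0.19). Eno3 (chr11:70657202-70662513, plus strand, 12 exons) had 5792, 5995 and 6243 CPM in WT and 6642, 6013 and 6223 CPM in M92KO muscle, a log2 fold change of 0.07 (95% interval -0.14 to 0.27). Only M92KO replicate 1 lay outside the WT range of Eno3. Eno1 (chr4:150236721-150248879, plus strand, 12 exons) had 79.6, 83.8 and 96.6 CPM in WT and 84.9, 75.6 and 69.2 CPM in M92KO muscle. Of the M92KO libraries, 2 lay below all WT libraries and M92KO replicate 1 lay among them. The log2 fold change of Eno1 was -0.18 (95% interval -0.41 to 0.05, adjusted p = 0.529 with edgeR's quasi-likelihood test). Without M92KO replicate 1 it was -0.26 and Eno1 was called, with an adjusted p-value of 0.183 from edgeR, and without WT replicate 3 it was -0.09.

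Pkm, pyruvate kinase of muscle and most other tissues, makes the last ATP of the pathway (chr9:59656368-59679375, plus strand, 11 exons). It had 3757, 3907 and 3980 CPM in WT and 4210, 3991 and 3938 CPM in M92KO muscle. M92KO replicates 1 and 2 lay above the WT range, and replicate 3 lay within it. Pkm had a log2 fold change of 0.06 (95% interval -0.12 to 0.25). The Pkm counts add up the muscle form PKM1 and the form PKM2, which are spliced from 1 gene.

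**Figure D2:**
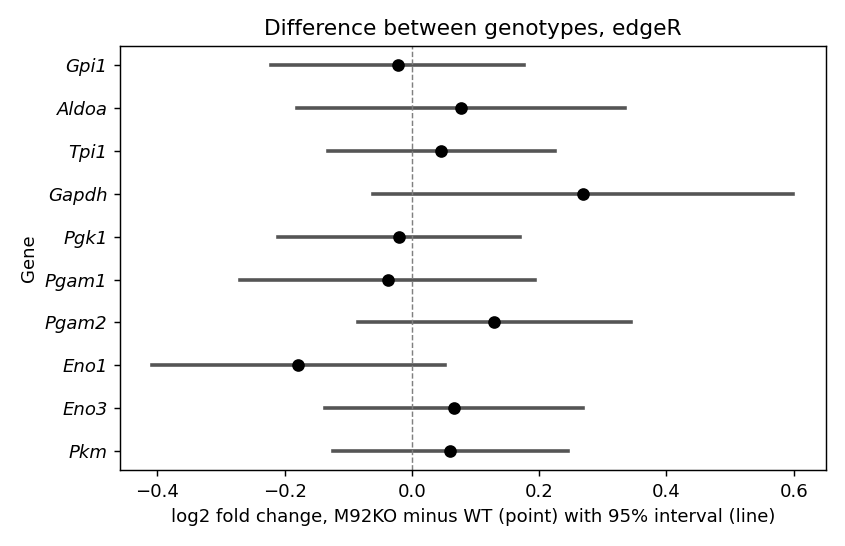
Log2 fold change of each enzyme (point; positive values are higher in M92KO) with its 95% interval (line), from edgeR's quasi-likelihood fit across all 15788 genes tested. Every interval includes 0, and those of Gapdh (-0.06 to 0.60) and Eno1 (-0.41 to 0.05) lie furthest to either side.

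The intervals limit how large a difference these 6 libraries leave room for. As a percent difference of M92KO from WT, the interval of Tpi1 ran from -8.75% to 16.9% and that of Pkm from -8.29% to 18.5%. For Gapdh it ran from -4.13% to 51.5%, and for Eno1 from -24.6% to 3.62%. Within a group, the SD of log2 CPM had a median of 0.10 over the 10 enzymes (0.05 to 0.23) and of 0.15 over all genes tested. A p-value over the threshold does not show that the enzymes were equal in the genotypes.

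The 10 mRNAs together made up 3.06%, 3.14% and 3.27% of all counts in WT and 3.55%, 3.07% and 3.14% in M92KO libraries. M92KO replicate 1 stood above the other 5 libraries, and the groups overlapped at 3.16% ± 0.107 and 3.25% ± 0.260 (SD, n = 3 each). Aldoa alone gave 44.4% to 47.0% of the counts of the 10 and 1.36% to 1.67% of all counts in a library.

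Levels of different genes were compared as CPM per kilobase (kb) of the main transcript. By the WT means, Aldoa was highest with 9183 ± 610 CPM per kb (SD, n = 3). It was followed by Eno3 (3843 CPM per kb), Pgam2 (2276), Pkm (1596), Tpi1 (1536), Pgk1 (631), Gpi1 (369), Gapdh (341), Eno1 (42.7) and Pgam1 (12.9). Over the 6 libraries the ranges of Pkm and Tpi1 overlapped, as did those of Gpi1 and Gapdh. Within each library Pkm stood above Tpi1, whereas Gpi1 and Gapdh changed places between libraries. The order of Pkm and Tpi1 depends on the length used. Per kb of all annotated exons of the gene, the means over the 6 libraries were 793 CPM for Pkm and 911 CPM for Tpi1. By the main transcript, all other neighbours had separate ranges.

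The order by the main transcript also depends on how reads from near-identical copies were counted, which is not given in the sources used here. Gapdh, Pgk1, Eno1 and Pgam1 have processed copies elsewhere in the genome. The main transcript of each enzyme was therefore cut into all windows of 100 bases, and each window was looked up on either strand in the annotated transcripts of all other genes. For Gapdh, 78.0% of windows were also present in 1 or more of 86 other genes, nearly all processed pseudogenes. For Pgk1 the share was 67.0% (Pgk1-rs7 and Gm5537), for Eno1 59.0% (mainly Eno1b and Gm4735) and for Pgam1 39.7% (Pgam1-ps2). The share was 9.82% for Pkm, 7.40% for Gpi1 and 0.796% for Tpi1. Aldoa, Pgam2 and Eno3 shared no window of this length. If reads that fit several genes had been dropped, the length that could receive counts would be only the unshared windows. Per kb of those windows, the WT mean of Gapdh was 1667 CPM per kb and that of Pgk1 2023 CPM per kb. Pgk1 then stood above Pkm and Gapdh above Tpi1, and the ranges of Pgk1 and Pkm, of Pkm and Gapdh, and of Gapdh and Tpi1 overlapped. Aldoa, Eno3 and Pgam2 were the highest and Eno1 and Pgam1 the lowest, both by the main transcript and by its unshared windows.

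**Figure D3:**
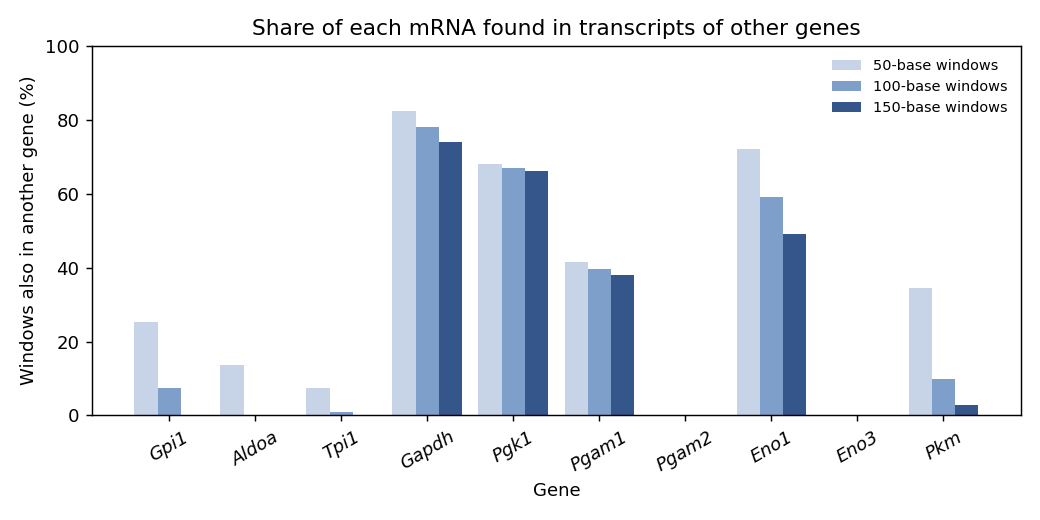
Share of all windows of 50, 100 or 150 bases in the main transcript of each enzyme that are also present in an annotated transcript of another gene (percent). Gapdh (78.0% at 100 bases), Pgk1 (67.0%), Eno1 (59.0%) and Pgam1 (39.7%) share most, and Pgam2 and Eno3 share none at any of the 3 lengths.

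Counts of some of these copies were part of the table. The processed pseudogene Gm29667 shares 6.66% of the Gapdh windows. Before scaling for library size, Gm29667 was counted 425, 335 and 368 times in the WT libraries and 307, 312 and 384 times in the M92KO libraries. Eno1b, an intronless copy that shares 58.6% of the Eno1 windows, was counted 201, 165 and 239 times in the WT libraries before scaling for library size, and 152, 139 and 134 times in the M92KO libraries. After scaling it had 4.54 ± 0.404 CPM in WT and 4.10 ± 0.364 CPM in M92KO muscle (SD, n = 3 each). Eno1b differed by -0.15 on the log2 scale (SE 0.14, adjusted p = 0.724 with edgeR's quasi-likelihood test), in the direction of the Eno1 value. Since reads could be split between the pair, the differences of Eno1, Eno1b, Gapdh, Pgk1 and Pgam1 are less certain than their intervals show. Exons of Gpi1 overlap the antisense gene Gm26762 over 741 bases, those of Pkm overlap Gm49759 on the same strand over 767 bases, and those of Aldoa, Tpi1 and Gapdh overlap an antisense neighbour over 25 to 68 bases. Whether the counting used strand is not given in the sources used here.

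The muscle isozymes outnumbered their widely expressed partners in every library. The ratios below are of counts, with no correction for transcript length or for windows shared with other genes. Divided by the length of the main transcripts, they ran from 160 to 240 for Pgam2 to Pgam1 and from 83.7 to 117 for Eno3 to Eno1. There were 75.7, 93.7 and 83.5 counts of Pgam2 per count of Pgam1 in WT and 113, 92.2 and 79.5 in M92KO libraries. M92KO replicate 1 had the highest ratio and WT replicate 1 the lowest, and the groups overlapped. The mean log2 ratio was 6.39 ± 0.154 in WT and 6.56 ± 0.258 in M92KO muscle (SD, n = 3 each, two-sided exact permutation p = 0.5). There were 72.8, 71.6 and 64.6 counts of Eno3 per count of Eno1 in WT and 78.2, 79.5 and 89.9 in M92KO libraries. All 3 M92KO ratios lay above all 3 WT ratios. The mean log2 ratio was 6.12 ± 0.0931 in WT and 6.36 ± 0.110 in M92KO muscle, a difference of 0.24 (n = 3 each, two-sided exact permutation p = 0.1, the smallest p-value that 3 against 3 libraries can give). It stayed between 0.18 and 0.28 when any 1 library was left out. The ratio rests on both members, since Eno1 was lower by -0.18 and Eno3 higher by 0.07 on the log2 scale and neither was called.

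**Figure D4:**
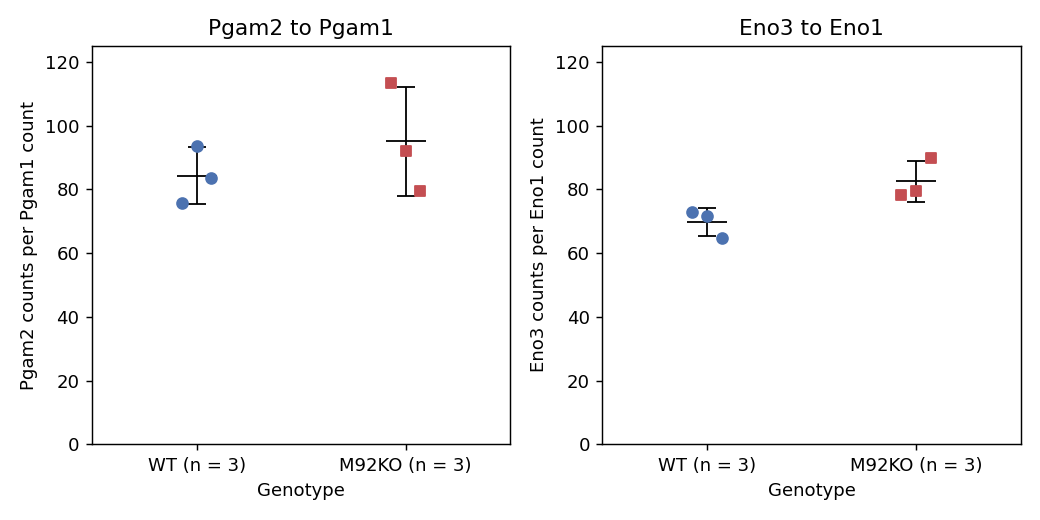
Counts of the muscle isozyme per count of its widely expressed partner in each library, for Pgam2 to Pgam1 (left) and Eno3 to Eno1 (right), with the mean and SD of each genotype (bars). For Eno3 to Eno1 the M92KO libraries (78.2 to 89.9) all lie above the WT libraries (64.6 to 72.8), whereas the groups overlap for Pgam2 to Pgam1.

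The partners of either pair had no window of 50 bases in common. The coding sequences of Pgam1 and Pgam2 were identical at 75.1% of bases with a longest identical run of 28 bases, and those of Eno1 and Eno3 at 76.88% of bases with a longest run of 20 bases. The encoded proteins were identical at 78.74% and 83.64% of residues. Promoter windows were compared for the mutase pair. In the 250 bases before the RefSeq start, Pgam1 (chr19:41911621-41911870, plus strand, GRCm38.p6) held 22 CpG dinucleotides and Pgam2 (chr11:5803797-5804046, minus strand) held 1. On both strands, the Pgam2 window held 1 copy of TATTTTTA, a core read by MEF2 factors, and 1 copy of the MyoD-type E-box CAGCTG. The first was present in 2.45% and the second in 13.0% of 32850 mouse promoter windows of this length. The E-box was also present in the Gpi1 window and in 1 of the Pkm windows, and the Eno3 window held none of the motifs searched, which also included the GC box GGGCGG and TATAAA. The Pgam1 window held no MEF2 core and no E-box, and held 1 copy of ACGTG, the core of the hypoxia response element, which 16.6% of windows held. ACGTG was also present in the Pgk1 window (2 copies), in some of the Aldoa windows and in 1 of the Pkm windows. These matches describe letters and not binding.

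The enzymes also varied between libraries of the same genotype, and often in the same libraries. M92KO replicate 1 was the highest of the 6 libraries for 6 enzymes (Aldoa, Tpi1, Gapdh, Pgam2, Eno3 and Pkm), WT replicate 3 for 3 (Gpi1, Pgk1 and Eno1) and M92KO replicate 3 for Pgam1. WT replicate 1 was the lowest for 7 of the 10 enzymes. WT replicate 3 and M92KO replicate 1 also had the most Myh4, the myosin of the fastest glycolytic fibres. Myh4 stood at 22990, 24629 and 28844 CPM in WT and 31515, 25007 and 22945 CPM in M92KO muscle. The 12 fast fibre markers summed to 138238 CPM in WT replicate 3 and 134317 CPM in M92KO replicate 1, against 120252 to 125740 CPM in the other 4 libraries. The 10 slow fibre markers summed to 353 and 292 CPM in these libraries and to 418 to 509 CPM in the other 4. Their part in the levels of the enzymes was not tested. Neither genotype was set apart, as the fast fibre sum ran from 121899 to 138238 CPM in WT and from 120252 to 134317 CPM in M92KO muscle. Of the 12 fast fibre markers 0 were called, with a median log2 fold change of -0.0006. Of the 10 slow fibre markers Myoz2 was called higher and Tpm3 lower, and the median was -0.22. These calls stand against 12.4% of all genes called. Over the alternatives, 0 to 4 slow fibre markers were called higher and 1 to 3 lower. For the fast fibre markers it was 0 higher and 0 to 2 lower. Without WT replicate 3 and M92KO replicate 1, the comparison was 2 against 2. Gapdh was then called higher (log2 fold change 0.41, adjusted p = 0.110 with edgeR's quasi-likelihood test). Eno1 was called lower (-0.17, adjusted p = 0.307 with the same test).

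**Figure D5:**
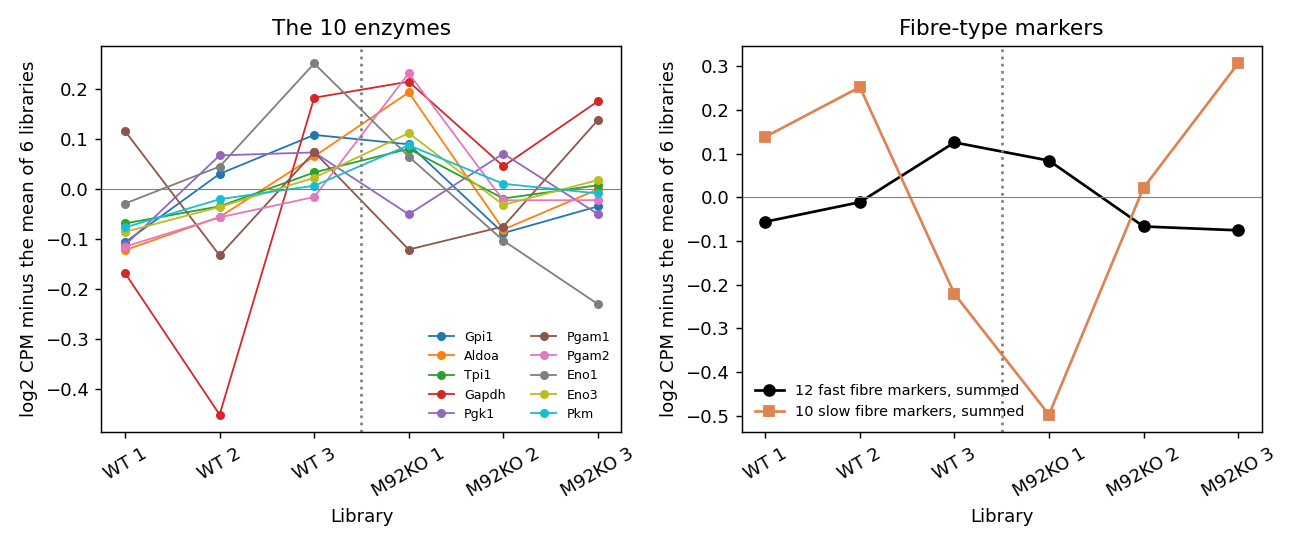
Log2 CPM of each of the 10 enzymes (left) and of the summed fast and slow fibre markers (right) in each library, minus the mean of the 6 libraries, with WT to the left and M92KO to the right of the dotted line. WT 3 and M92KO 1 have the highest fast fibre sums and the lowest slow fibre sums. For 9 of the 10 enzymes the highest single value is in either WT 3 or M92KO 1. The enzymes are not always high in both, as Pgk1 in M92KO 1 lies at -0.05.

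The rest of the pathway was described with the same fit. Of 25 other glycolysis genes, 22 could be tested, 2 were called higher and 1 lower in M92KO muscle, with a median log2 fold change of 0.04. The 3 calls among 22 genes are close to the 12.4% of all genes called. Without M92KO replicate 1, 5 were called higher and 3 lower, while the calls over all genes went from 863 to 1545 higher and from 1092 to 1439 lower. Pfkl, the liver-type subunit of phosphofructokinase, had 10.5, 10.7 and 11.6 CPM in WT and 15.2, 13.8 and 14.3 CPM in M92KO muscle. The groups did not overlap and the log2 fold change was 0.40 (SE 0.09, adjusted p = 0.181 with edgeR's quasi-likelihood test). Hk2, the main muscle hexokinase, had 495, 463 and 439 CPM in WT and 456, 715 and 720 CPM in M92KO muscle, where replicate 1 lay within the WT range. The Hk2 difference of 0.44 (SE 0.16, adjusted p = 0.343 in edgeR) was no longer called without any 1 of WT replicates 2 and 3 and M92KO replicates 2 and 3, when it ran from 0.33 to 0.43, and was 0.62 and still called without M92KO replicate 1. Pfkfb3, which makes and removes the activator of phosphofructokinase, had 701, 881 and 628 CPM in WT and 630, 271 and 316 CPM in M92KO muscle, and M92KO replicate 1 again lay within the WT range. The log2 fold change of Pfkfb3 was -0.86 (SE 0.29, adjusted p = 0.305 in edgeR), and it was not called without WT replicate 2 (-0.71), M92KO replicate 2 (-0.64) or M92KO replicate 3 (-0.71). Without M92KO replicate 1 it was -1.33 and still called.

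Calls among the other isozymes and the routes that branch from the 10 steps are to be read against the 12.4% of all genes called. None of the 6 tested other isozymes, such as the aldolase and enolase genes of other tissues, was called. Of 10 tested pentose phosphate genes, which draw on glucose 6-phosphate, only H6pd was called lower. Of 11 tested genes of the glycerol phosphate and malate shuttles, which reoxidise the NADH made by Gapdh, only Gpd1 was called. Gpd1, cytosolic glycerol-3-phosphate dehydrogenase, had 675, 701 and 774 CPM in WT and 614, 623 and 588 CPM in M92KO muscle, with no overlap. Gpd1 differed by -0.24 on the log2 scale (SE 0.08, adjusted p = 0.285 with edgeR's quasi-likelihood test), and the call was lost without WT replicate 3 (-0.18) or M92KO replicate 3 (-0.21). None of the 5 genes of the serine branch, which leaves at 3-phosphoglycerate, was called.

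Counts of called markers of other cells stand against 5.47% of all genes called higher and 6.92% called lower. Called lower in M92KO muscle were 3 of 8 fibroblast markers (Col1a1, Col1a2 and Dcn), 2 of 6 nerve markers (Mbp and Pmp22) and 2 of 7 tested leukocyte markers (Ptprc and Cd14). Of 6 satellite cell markers 3 were called higher (Pax7, Cdh15 and Itga7) and 2 lower (Sdc4 and Calcr), and of 8 endothelial markers 1 was called higher (Ly6c1) and 1 lower (Tie1). No red cell or fat cell marker was called, of 5 and 6 tested, although their median log2 fold changes of 0.66 and 0.73 were the largest of the lists. The red cell sum ran from 74.0 to 223 CPM in WT and from 143 to 336 CPM in M92KO muscle, and the fat cell sum from 313 to 364 CPM and from 312 to 392 CPM, so that the groups overlapped. Over the alternatives, 0 to 3 red cell and 0 to 4 fat cell markers were called higher. Called lower over the alternatives were 1 to 5 fibroblast, 0 to 3 nerve, 0 to 2 leukocyte, 1 to 4 endothelial and 1 to 2 satellite cell markers. For satellite cells 3 were called higher throughout, and for endothelial cells 0 to 2. The fibroblast sum ran from 2362 to 3119 CPM in WT and from 1799 to 2304 CPM in M92KO muscle, and the nerve sum from 91.9 to 118 CPM and from 90.1 to 93.6 CPM. These cell types use the widely expressed isozymes, and the part of their share in the Eno1 and Pgam1 levels was not tested.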

How the data were processed

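RNA of 6 Gas muscles (3 WT, 3 M92KO) was extracted with an RNeasy kit and made into libraries with a SMARTer kit, per the labels. The authors deposited raw counts of reads per gene symbol, not normalized. The labels name the builds GRCm38 and mm10. The aligner, counting program, strandedness, annotation and treatment of reads that fit several genes are not given in the sources used here, and near-identical copies can therefore gain or lose counts. Groups came from the sample labels. The labels and methods describe separate animals and state no pairing by replicate number.

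The whole count table was fitted with edgeR 4.0.16 under R 4.3.3 (filterByExpr with a minimum count of 10 and a minimum total of 15, TMM, quasi-likelihood test on genotype) over 15788 genes. p-values were adjusted with the Benjamini-Hochberg method, and a call means an unadjusted p-value under 0.05. The step was tested on simulated data. CPM use TMM-normalized library sizes. A floor of 3 counts was worth 0.0622 to 0.0905 CPM, far under every enzyme, and covers counting error only. Isozyme ratios were compared with a two-sided exact permutation test over libraries. Alternatives were DESeq2 1.42.0, limma 3.58.1 on quantile-normalized log2(value + 1), other scalings and filters, offsets for GC content and length, a replicate block, and leaving out libraries. Positions, transcripts and 3′-UTRs came from GENCODE M21 (GRCm38), which matched all 10 enzymes. Promoter windows and microRNAs came from RefSeq (GRCm38.p6). Protein identity was computed from translated coding sequences.

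The 10 members, the lists and the rule for named genes (all 10, the 2 genes of smallest p-value in each other list, and called genes of lists with up to 3 calls) were chosen with earlier results of these data known. Values are given for those others that bear on the pathway, and 2 genes taken out of the lists afterwards are not reported here.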

Additional observations from a re-analysis of the deposited data

How the results depend on the processing

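Of 170 recomputed log2 fold changes of the 10 enzymes, 151 kept their direction and their side of the unadjusted threshold of 0.05, 13 changed sign and 6 passed it. No enzyme passed an adjusted p-value of 0.05 under any of 17 alternatives, where the smallest was 0.110 with edgeR. The number called higher was 1 (Gapdh) with the replicate block (log2 fold change 0.29) and without both libraries rich in Myh4, an alternative chosen after seeing the data. The number called lower was 1 (Eno1) with GC and length trends removed (-0.20) and without both libraries rich in Myh4. Leaving out 1 library gave 0 to 1 called higher and 0 to 1 called lower. Quantile normalization with limma turned Tpi1 (-0.0926 on counts and -0.0881 on CPM) and Pgam2 (-0.0983 and -0.0991), and leaving out both Myh4-rich libraries turned Pgk1 (0.0311) and Pgam1 (0.0377). Leaving out 1 library moved Gpi1 between -0.0795 and 0.0256, Aldoa between -0.00492 and 0.135, Pgk1 between -0.0796 and 0.00928 and Pgam1 between -0.121 and 0.0119. Without M92KO replicate 1, Tpi1 (0.02), Pgam2 (0.04), Eno3 (0.03) and Pkm (0.03) had their lowest values when 1 library was left out. The cause of each change was not tested.

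The Pgam2 to Pgam1 difference ran from 0.03 to 0.28, the Eno3 to Eno1 difference from 0.18 to 0.28 and the difference in the summed share from -0.05 to 0.19 percentage points when 1 library was left out. Of the other glycolysis genes, 1 to 5 were called higher and 0 to 3 lower over the alternatives, and the same ranges held when 1 library was left out. The higher count was 1 with limma on counts and 1 with limma on CPM. The lower count was 0 with limma on counts, 0 with limma on CPM and 3 without both Myh4-rich libraries. Pfkl was called in 17 of 17 alternatives, Gpd1 in 15, Pfkfb3 in 12 and Hk2 in 11.

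Calls over all genes at an adjusted p-value of 0.05 were 0 with edgeR, 322 with DESeq2, 6 with no filter on low counts, 42 with limma on counts, 8 with limma on CPM, 2 with the replicate block, 0 to 401 when 1 library was left out (401 without M92KO replicate 1) and 173 without both Myh4-rich libraries. At the unadjusted threshold, edgeR called 863 genes higher and 1092 lower, and limma on counts 1244 higher and 1043 lower. The labels state no pairing of the mice by replicate number. Deviations of same-numbered libraries from their group means correlated at 0.08, 0.04 and 0.02. Differently numbered libraries were not compared in this way, so these values cannot exclude a shared batch. The block gave 686 genes higher and 1005 lower. Libraries of the same group differed beyond counting noise over all genes, so the spread between the 3 libraries of a group, and not only depth, sets the width of the intervals. With 1 library for each mouse, spread between mice and spread from sample handling cannot be told apart.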
